A study of Mus musculus with 8 samples.

Results

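Interferon signalling and interferon-stimulated genes were examined in islet RNA of NOD females, mice in which the immune system attacks the insulin-producing beta cells. The genes were 52 listed symbols of interferon receptors, kinases, transcription factors, nucleic acid sensors, antiviral effectors, immunity GTPases, feedback inhibitors and chemokines, with the genes of class I antigen presentation left out. Of the 52 symbols, 51 had a row among the 13725 genes of the deposited table, and Cxcl9, a chemokine gene induced by interferon gamma, was not analysed here. There were 4 PAHSA libraries (replicates 1, 2, 3 and 4) and 4 Vehicle libraries (replicates 1, 3, 4 and 5). All came from pancreatic islets of NOD females aged 10 weeks, and no other allele or agent is given. PAHSAs are lipids in which palmitic acid is joined by an ester bond to a hydroxylated stearic acid, and the labels spell the treatment PASHA, with no dose, route or duration. The sources differ on whether a library holds islets of 1 mouse or of 2 pooled mice, so p-values measure the spread between libraries.

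Type I interferons signal through the receptor chains Ifnar1 and Ifnar2, and interferon gamma through Ifngr1 and Ifngr2, to JAK kinases and STAT factors. Type I signalling forms a complex of STAT factors with Irf9 that binds the interferon-stimulated response element (ISRE) in target promoters, and interferon gamma signalling forms a STAT dimer that binds the gamma-activated site (GAS). In islets, interferon-stimulated genes are known as an early feature of autoimmune diabetes, and variants of the sensor gene Ifih1 are linked to the disease in humans.

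The letters GAAANNGAA (an ISRE core) and TTCNNNGAA (a GAS core) were searched on both strands of RefSeq promoter windows (build GRCm38.p6). A window ran from 250 bases before to 50 bases after a transcript start. Windows were found for 42 of the 51 genes, 48 windows in all. An ISRE core was present in 25 of the 48 windows (52.1%), against 8.56% of all 32851 windows, and a GAS core in 16 of 48 (33.3%), against 8.30% of all windows. In 2 of the gene windows a match of one core overlapped a match of the other. A match is a description of letters and not a binding site. The genes were listed as interferon genes beforehand, so the higher shares do not test whether they belong to the pathway. Irf7, Irf9 and Oasl2 had no ISRE core in their windows. The stretches below hold the ISRE core nearest the start for the 5 genes described in full that had the highest mean log2 CPM among those with a match, and the GAS core of Irf1, with up to 30 bases to each side, 5′ to 3′ on the strand of the gene. Ifitm3 and Socs3 were added after their values were seen. Capitals mark the core, which where it begins with TTC and ends with TTC is an ISRE core on the other strand.
Adar, chr3:89730721-89730767, + strand: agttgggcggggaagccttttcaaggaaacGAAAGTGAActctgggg
Igtp, chr11:58199492-58199560, + strand: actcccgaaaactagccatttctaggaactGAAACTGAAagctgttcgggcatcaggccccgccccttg
Ifit1, chr19:34640775-34640843, + strand: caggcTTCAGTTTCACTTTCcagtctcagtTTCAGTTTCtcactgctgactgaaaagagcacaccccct
Stat2, chr10:128270248-128270315, + strand: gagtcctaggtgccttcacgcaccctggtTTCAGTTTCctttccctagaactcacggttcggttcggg
Gbp2, chr3:142620575-142620643, + strand: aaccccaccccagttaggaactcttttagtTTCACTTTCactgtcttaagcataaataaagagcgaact
Irf1, chr11:53769894-53769962, + strand: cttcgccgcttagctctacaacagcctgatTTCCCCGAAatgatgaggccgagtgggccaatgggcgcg
Ifitm3, chr7:141010704-141010772, - strand: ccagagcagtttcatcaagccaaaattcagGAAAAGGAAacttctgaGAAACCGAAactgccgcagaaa
Socs3, chr11:117969482-117969550, - strand: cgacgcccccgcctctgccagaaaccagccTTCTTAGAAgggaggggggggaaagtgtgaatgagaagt

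The stretch of Ifit1 holds 3 ISRE cores, 2 of them overlapping, and that of Ifitm3 holds 2, of which the one nearest the start begins 2 bases after it. The GAS core of Irf1 begins 90 bases before the start, and that of Socs3 154 bases before it.

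The interferon genes were about evenly split in direction between PAHSA and Vehicle islets, and none passed the test over all genes. Of the 51 genes with a row, 48 passed the filter on low values (a mean log2 CPM above 0 over the 8 libraries) and were tested, and 25 of these were higher and 23 lower in PAHSA. With 1 library left out, 17 to 28 of the 48 were higher. The median difference in log2 CPM (PAHSA minus Vehicle) was 0.0088 over the 48 genes and -0.0056 over all 12231 genes tested. None of the 48 passed an adjusted p of 0.05 in limma, where 0% of all genes passed, and the smallest adjusted p among them was 0.671. At an unadjusted p under 0.05, 2 of the 48 were lower, Ifitm3 and Socs3, which is 4.17% of the genes against 4.29% of all genes tested. At the same level 0 of the 48 were higher, against 3.02% of all genes. The 4 PAHSA libraries lay below the 4 Vehicle libraries in 1 of the 48 genes, Socs3, which is 2.08% against 1.95% of all genes, and lay above them in 0 of 48, against 2.06% of all genes. The shares of lower genes were close to those of all genes.

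**Figure D1:**
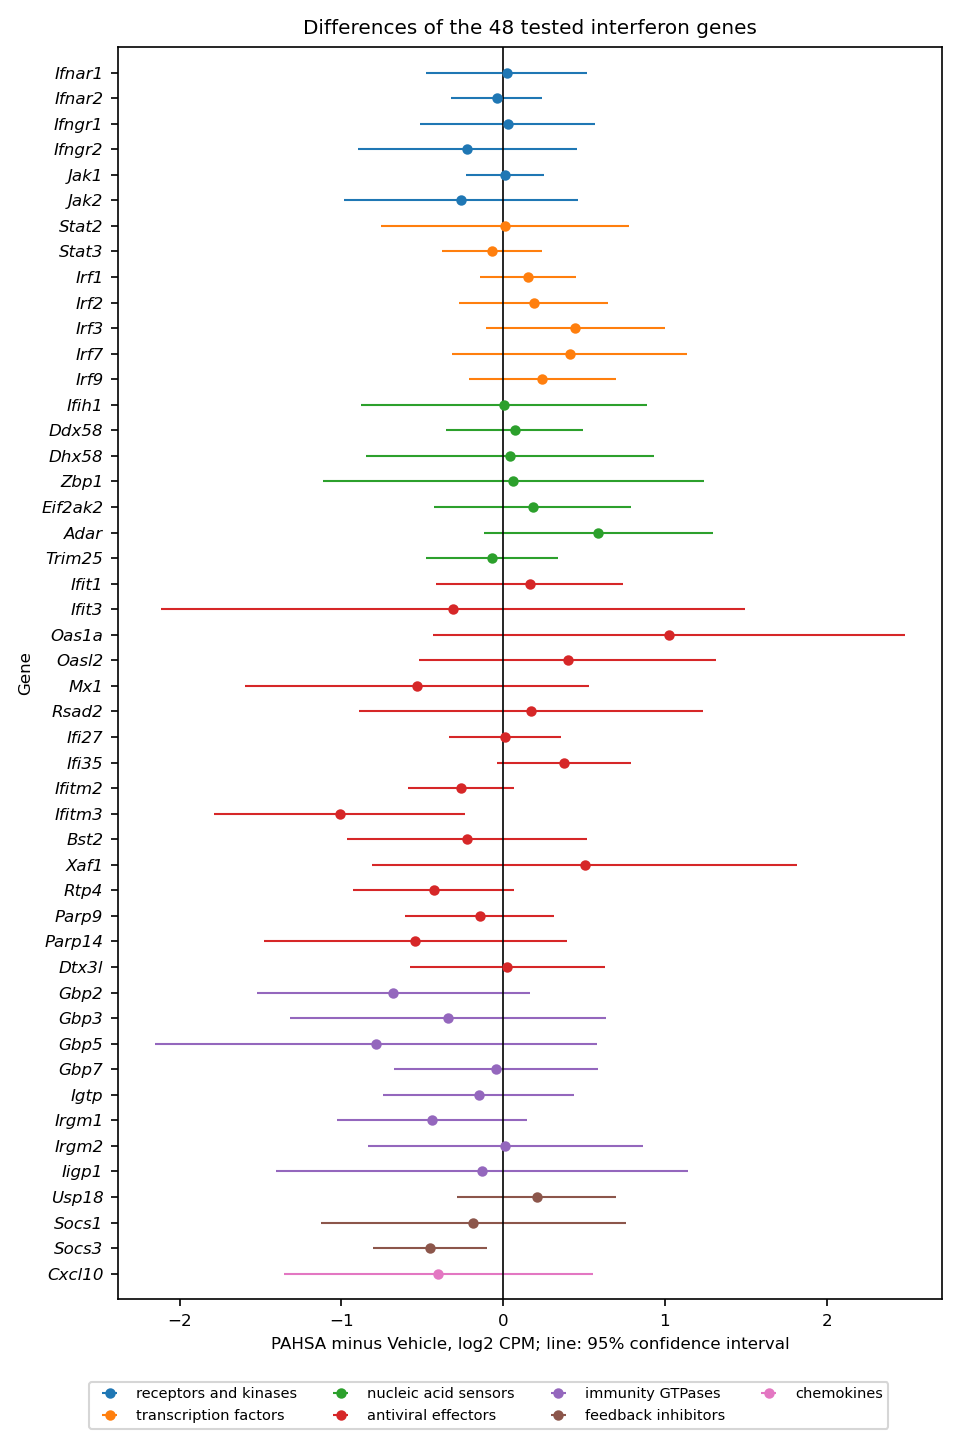
Difference in log2 CPM (PAHSA minus Vehicle, x axis) of each of the 48 tested interferon genes (y axis), coloured by role, with the 95% confidence interval from limma as a line. The intervals of Ifitm3 and Socs3 lie below 0 and those of the other 46 genes include 0.

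The islet label was checked against markers, and markers of other cells are given here because several interferon genes are also active in them. Ins1 and Ins2, the insulin genes, were at 24829 to 35001 and 81865 to 103312 CPM in PAHSA and at 25192 to 35513 and 76459 to 100994 CPM in Vehicle. Of 7 general leukocyte markers 2 had a row, and their summed level was 0.545 to 9.07 CPM in PAHSA and 3.39 to 5.97 CPM in Vehicle, while of 14 T and NK cell markers 2 had a row, at a summed 1.77 to 7.63 CPM in PAHSA and 4.29 to 10.6 CPM in Vehicle. Of 6 B cell markers 1 had a row, at 0.676 to 1.64 CPM in PAHSA and 0.166 to 0.751 CPM in Vehicle. The other leukocyte, T, NK and B cell markers, Ptprc and Cd3e among them, were not analysed here. Of 15 macrophage and dendritic cell markers 3 had a row, at a summed 54.1 to 88.0 CPM in PAHSA and 74.3 to 108 CPM in Vehicle. Of 8 endothelial markers 4 had a row, at 36.9 to 50.8 CPM in PAHSA and 37.4 to 77.9 CPM in Vehicle. The 12 acinar markers summed to 363 to 15566 CPM in PAHSA and 10222 to 42200 CPM in Vehicle, 7 of 8 duct markers to 3009 to 3983 CPM in PAHSA and 3804 to 5730 CPM in Vehicle, and the 10 stellate cell and fibroblast markers to 38.3 to 143 CPM in PAHSA and 82.2 to 314 CPM in Vehicle. The duct sum rested mainly on Spp1, Krt7, Krt8 and Krt18, at a mean log2 CPM of 11.2, 9.38, 9.10 and 8.53, with Krt19 at 3.95 and Sox9 at 1.82. Krt7 differed by 0.19 and the other 6 duct markers were lower in PAHSA, so the sum is not a measure of duct cell content. In these bulk libraries fewer cells of a type and less RNA per cell cannot be told apart. Recovered depth was 35356278 to 39359123 estimated counts in PAHSA libraries and 34461742 to 45236238 in Vehicle libraries.

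Of the 6 genes of receptor chains and their kinases, 3 were higher and 3 lower in PAHSA, with a median difference of -0.01 and a range of -0.26 to 0.03. The split depended on the libraries, with 0 of 6 higher without Vehicle replicate 4 (median -0.07) and 1 of 6 higher without PAHSA replicate 3 (median -0.04). Ifnar1, a chain of the type I receptor, stood at 5.37, 5.03, 5.24 and 5.67 log2 CPM in the 4 PAHSA libraries (replicates 1 to 4 in order), and at 5.44, 5.42, 4.70 and 5.66 in Vehicle replicates 1, 3, 4 and 5. The groups overlapped, with Vehicle replicate 4 lowest, and the difference was 0.02 (SE 0.23). Its partner chain Ifnar2 differed by -0.04 (SE 0.13), with a 95% confidence interval from -0.32 to 0.24. Ifngr1, the ligand-binding chain for interferon gamma, was at 4.02, 5.05, 4.76 and 4.71 log2 CPM in the 4 PAHSA libraries, and at 4.50, 4.52, 4.46 and 4.96 in the 4 Vehicle libraries. PAHSA held both the lowest and the highest library, and the difference was 0.03 (SE 0.24). Ifngr2, the second chain of that receptor, differed by -0.22 (SE 0.31). Jak1, the kinase that both receptors use, had one of the narrowest intervals, at 0.01 (SE 0.11, 95% confidence interval -0.23 to 0.25). Jak2, the kinase bound to Ifngr2, had the smallest p of these genes. Jak2 stood at 4.86, 5.17, 5.62 and 5.32 log2 CPM in PAHSA and at 5.97, 5.95, 4.41 and 5.68 in Vehicle. PAHSA lay below 3 of the Vehicle libraries and above Vehicle replicate 4, which was lowest of all, and the difference was -0.26 (SE 0.33, adjusted p = 0.890 by limma). Without Vehicle replicate 4 the difference of Jak2 was -0.62 (unadjusted p = 0.0108, adjusted p = 0.704 by limma). It was nearer to 0 without PAHSA replicate 1 (-0.13), Vehicle replicate 1 (-0.10) or Vehicle replicate 3 (-0.11).

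Of the 7 transcription factors of the pathway, 6 were higher in PAHSA and 1 lower, with a median difference of 0.19, and none had an unadjusted p under 0.05. Their mean log2 CPM was 5.44, 5.70, 5.63 and 5.63 in the PAHSA libraries and 5.48, 5.41, 5.40 and 5.32 in the Vehicle libraries. The 3 PAHSA replicates 2, 3 and 4 were above every Vehicle library and PAHSA replicate 1 was below Vehicle replicate 1. Irf3, the factor that induces type I interferon after nucleic acid sensing, had the smallest p. Irf3 stood at 4.73, 4.64, 4.08 and 4.70 log2 CPM in PAHSA and at 3.68, 3.88, 4.41 and 4.39 in Vehicle, so that 3 PAHSA libraries were above all Vehicle libraries and PAHSA replicate 3 was within their range. The difference was 0.45 (SE 0.25, adjusted p = 0.732 by limma). Irf7, an interferon-induced factor that amplifies type I interferon production, was at 3.99, 3.70, 4.78 and 4.00 log2 CPM in PAHSA and at 4.08, 4.19, 3.44 and 3.11 in Vehicle. The groups overlapped, and the difference was 0.41 (SE 0.33), 0.19 without PAHSA replicate 3 and 0.21 without Vehicle replicate 5. Irf9, the DNA-binding part of the type I complex, was at 5.34, 5.45, 4.97 and 5.67 log2 CPM in PAHSA and at 5.0, 4.81, 5.53 and 5.12 in Vehicle. Its difference of 0.24 (SE 0.21) did not exceed the spread between libraries, and it was 0.14 without PAHSA replicate 4 or Vehicle replicate 3, 0.37 without PAHSA replicate 3 and 0.38 without Vehicle replicate 4. Stat2, its partner in that complex, was at 3.88, 5.83, 5.20 and 5.14 log2 CPM in PAHSA and at 5.31, 4.84, 4.97 and 4.88 in Vehicle. The lowest and the highest library were both PAHSA ones, the SD was 0.82 in PAHSA and 0.21 in Vehicle (n = 4 each), and the difference was 0.01 (SE 0.35). Irf1, a factor induced by interferon gamma that is also known to act in beta cell death, was at 7.05, 6.83, 6.86 and 6.96 log2 CPM in PAHSA and at 7.04, 6.91, 6.48 and 6.67 in Vehicle. PAHSA replicates 2, 3 and 4 lay in the upper part of the Vehicle range and PAHSA replicate 1 just above it. The difference was 0.15 (SE 0.14), 0.24 without Vehicle replicate 1 and 0.05 without Vehicle replicate 4. Irf2, which competes with Irf1 for the same sites, differed by 0.19 (SE 0.21), and Stat3, a factor of the interleukin-6 family of cytokines and a target of Socs3 control, by -0.07 (SE 0.14).

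**Figure D2:**
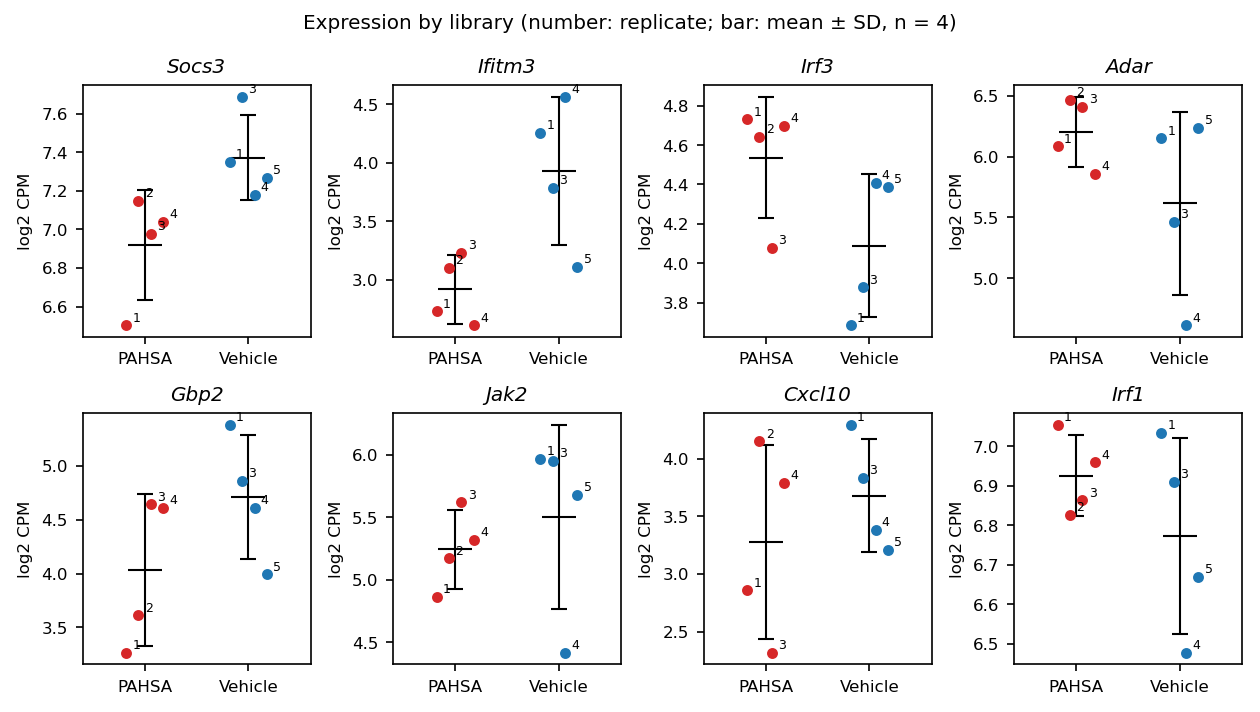
log2 CPM by library (y axis, its range set for each gene) in PAHSA (left) and Vehicle (right) for 8 interferon genes, with the replicate number beside each point and the mean ± SD of 4 libraries as bars. Socs3 is the gene whose groups do not overlap, with PAHSA at 6.50 to 7.15 and Vehicle at 7.18 to 7.69, and the groups of the other 7 genes overlap.

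Among the 7 sensors of foreign or altered nucleic acid, 6 were higher in PAHSA and 1 lower, with a median difference of 0.06. That direction rested on single libraries, since 2 of 7 were higher without PAHSA replicate 3 (median -0.05) and 3 of 7 without Vehicle replicate 5 (median -0.01). Ifih1, which encodes the long double-stranded RNA sensor MDA5, was at 3.22, 3.24, 3.11 and 1.72 log2 CPM in PAHSA and at 2.90, 2.90, 2.84 and 2.63 in Vehicle. The 3 PAHSA replicates 1, 2 and 3 were above every Vehicle library and PAHSA replicate 4 was below them all. The mean was 2.82 in both groups, with an SD of 0.74 in PAHSA and 0.13 in Vehicle (n = 4 each), and the difference was 0.01 (SE 0.40), 0.37 without PAHSA replicate 4. Dhx58, which encodes LGP2, a regulator of the same sensing, showed PAHSA replicate 4 lowest too, at 2.11 log2 CPM, against 3.21 to 3.80 in the other PAHSA libraries and 2.68 to 3.63 in Vehicle, and its difference was 0.04 (SE 0.40). Ddx58, which encodes the short RNA sensor RIG-I, had its lowest value in the same library, at 4.83 against 5.25 to 5.46 in the other PAHSA libraries and 4.92 to 5.49 in Vehicle, and its difference was 0.07 (SE 0.19). Adar, the RNA-editing enzyme that keeps the cell's own double-stranded RNA from these sensors, had the smallest p of the group. Adar stood at 6.08, 6.46, 6.41 and 5.86 log2 CPM in PAHSA and at 6.15, 5.47, 4.62 and 6.23 in Vehicle. Vehicle replicates 3 and 4 lay below all PAHSA libraries and Vehicle replicates 1 and 5 within their range. The difference was 0.59 (SE 0.32, adjusted p = 0.724 by limma) and 0.25 without Vehicle replicate 4. Eif2ak2, which encodes the RNA-activated kinase PKR, differed by 0.18 (SE 0.28), Trim25, a ubiquitin ligase that acts on RIG-I, by -0.07 (SE 0.18), and Zbp1, a sensor of Z-form nucleic acid, by 0.06 (SE 0.53).

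Of the 16 antiviral effectors tested, 8 were higher and 8 lower, with a median difference of -0.07. The split varied with the libraries, at 6 higher and 10 lower without PAHSA replicate 4 or Vehicle replicate 5, and at 4 higher and 12 lower in the libraries numbered 1, 3 and 4 (median -0.14). Ifitm3, a membrane protein that blocks virus entry, had the smallest p of all interferon genes. Ifitm3 stood at 2.73, 3.10, 3.23 and 2.61 log2 CPM in PAHSA and at 4.26, 3.79, 4.56 and 3.11 in Vehicle. PAHSA lay below Vehicle replicates 1, 3 and 4, and Vehicle replicate 5 was within the PAHSA range. Ifitm3 averaged 2.92 ± 0.30 in PAHSA against 3.93 ± 0.63 in Vehicle (SD, n = 4 each). The difference was -1.01 (SE 0.35, 95% confidence interval -1.79 to -0.23), or 0.496 times the Vehicle level. The unadjusted p was 0.0155 and the limma adjusted p 0.671, so the difference did not pass over all genes. Ifitm3 (ENSMUSG00000025492) is a protein-coding gene on the minus strand of chromosome 7 from 141009586 to 141010770 in GRCm38. Beside it, 12 of 12 acinar markers were lower in PAHSA (10 at an unadjusted p under 0.05), as were 6 of 7 duct markers (4 at that level) and 8 of 9 stellate cell and fibroblast markers tested (1 at that level). Over all genes tested, 4.29% were lower and 3.02% higher at that level. The acinar markers varied together, and the groups overlapped for each of the 12. Each was lowest in PAHSA replicate 4, at a summed 363 CPM against 3762 to 15566 CPM in the other PAHSA libraries. All 4 endothelial markers were lower (0 at that level), 8 of 10 beta cell markers were higher (3 at that level), and 2 of 3 macrophage and dendritic cell markers were lower (1 at that level). The last was Cd14, a lipopolysaccharide co-receptor gene, at 3.07, 3.88, 2.99 and 4.41 log2 CPM in PAHSA and at 4.39, 5.28, 5.53 and 4.09 in Vehicle, a difference of -1.23 (SE 0.41, unadjusted p = 0.0119), with overlapping groups. The other markers of that list, Cd68 and C1qa, differed by -0.11 (SE 0.19) and 0.27 (SE 0.31). Adding the acinar mean to the fit gave an Ifitm3 difference of -0.79 (unadjusted p = 0.0980), and without Vehicle replicate 4 it was -0.80 (unadjusted p = 0.0511). The part of the other cell types in its difference was not tested. Its neighbour Ifitm2, of the same family, differed by -0.26 (SE 0.15).

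Ifit1, whose protein binds viral RNA that lacks the cap mark of the host and whose promoter stretch above holds 3 ISRE cores, was at 5.26, 4.82, 5.05 and 5.81 log2 CPM in PAHSA and at 5.61, 4.59, 4.96 and 5.11 in Vehicle. The groups overlapped over most of their range, with a difference of 0.17 (SE 0.26) that was -0.02 without PAHSA replicate 4. Ifit3, a partner of Ifit1, varied within groups from -0.19 to 3.47 log2 CPM in PAHSA and from 0.82 to 3.33 in Vehicle, and its difference was -0.31 (SE 0.82). Isg15, which encodes a ubiquitin-like protein and is often used to score the response, lay under the filter on low values. Isg15 stood at -0.26, 1.14, 0.26 and -6.32 log2 CPM in PAHSA, from recovered counts of 30, 78, 47 and 0, and at 0.68, 0.38, 1.41 and -0.06 in Vehicle, from 56, 53, 96 and 42.8. The value of PAHSA replicate 4 is the lowest of its library. It alone brought the mean over the 8 libraries, -0.35, under the cut-off of 0. The other 3 PAHSA libraries overlapped the Vehicle range. Ifit2, another Ifit family gene, and Ifi44, an interferon-induced gene, were also under the filter. Ifit2 was at 1.44, 0.04, -6.31 and 1.70 log2 CPM in PAHSA and at 2.53, -4.78, -1.66 and 2.22 in Vehicle, so that both groups held libraries close to no counts. Ifi44 was at 1.43, 1.02, -2.61 and -0.70 log2 CPM in PAHSA and at 1.21, -3.55, 1.64 and -2.30 in Vehicle.

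The largest positive difference of all 48 genes was that of Oas1a, which makes the messenger that activates RNase L. Oas1a stood at 2.74 to 3.11 log2 CPM in the 4 PAHSA libraries, and at 2.95, 3.09, -0.19 and 1.68 in Vehicle replicates 1, 3, 4 and 5. The difference of 1.02 (SE 0.66) came with an SD of 0.17 in PAHSA and 1.52 in Vehicle (n = 4 each), and Vehicle replicate 4 was far below the other 7 libraries. Ifi35, which dimerises with other interferon-induced proteins, had the smallest p of the effectors that were higher. Ifi35 stood at 5.08, 5.46, 5.71 and 5.08 log2 CPM in PAHSA and at 4.76, 5.13, 5.0 and 4.92 in Vehicle, a difference of 0.38 (SE 0.19, unadjusted p = 0.0694). Rtp4, an interferon-induced transporter chaperone, was lower by a similar amount, at -0.43 (SE 0.23). Relative to their SE the remaining effectors were nearer to 0. Oasl2, an RNA-binding relative of the Oas enzymes, was at 0.40 (SE 0.41), Xaf1, a gene that promotes apoptosis, at 0.50 (SE 0.60), and Rsad2, which encodes viperin, at 0.17 (SE 0.48). Mx1, an antiviral GTPase gene, was at -0.53 (SE 0.48), Parp14, an ADP-ribosyltransferase gene, at -0.54 (SE 0.42), and Bst2, which encodes tetherin, at -0.22 (SE 0.34). Parp9 and its partner Dtx3l, whose gene models overlap on opposite strands, were at -0.15 (SE 0.21) and 0.02 (SE 0.27). Ifi27, an interferon-induced gene of mitochondria and the nuclear envelope, was at 0.01 (SE 0.16).

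**Figure D3:**
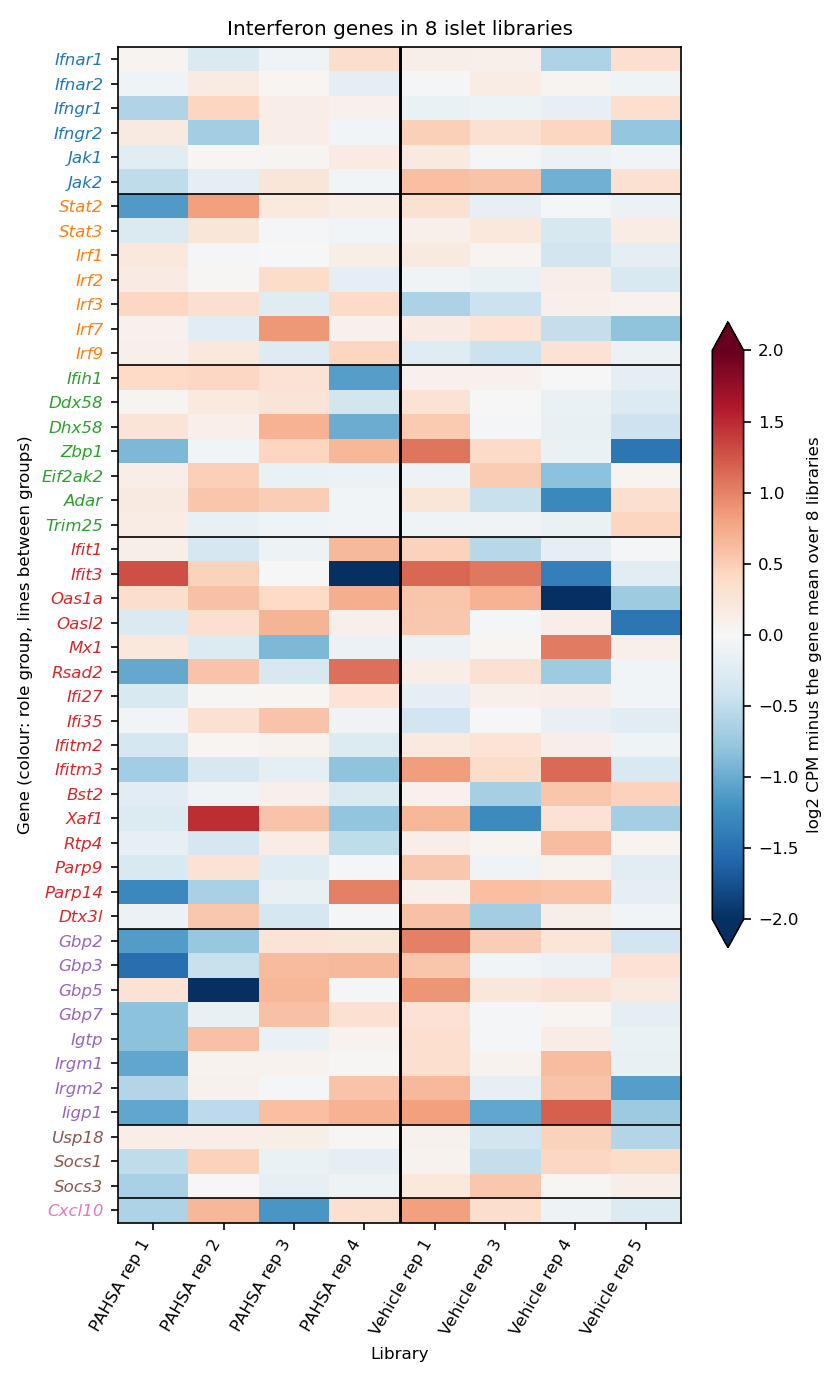
log2 CPM of the 48 tested interferon genes minus the mean of each gene over 8 libraries (colour), with PAHSA libraries left and Vehicle libraries right of the line and genes grouped by role. Blue cells of the immunity GTPases gather in PAHSA replicate 1, and no role group has 1 colour across all libraries of a treatment.

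Immunity GTPases, which attack membranes of intracellular pathogens and are induced mainly by interferon gamma, were lower in PAHSA in 7 of 8 genes, with a median difference of -0.25. The direction rested on PAHSA replicate 1. That library was the lowest of the 8 for 6 of the 8 genes, and without it 5 of the 8 were higher and 3 lower in PAHSA, with a median difference of 0.10. Without Vehicle replicate 1, or with the leukocyte mean in the fit, 5 of 8 were lower. Other changes went the opposite way, with 8 of 8 lower when the acinar mean was in the fit (median -0.34). The same held without PAHSA replicate 4 (median -0.45), Vehicle replicate 3 (-0.45) or Vehicle replicate 5 (-0.37). Their mean log2 CPM was 3.63, 4.01, 4.80 and 4.78 in the PAHSA libraries and 5.08, 4.39, 4.84 and 4.19 in the Vehicle libraries, so that PAHSA replicates 3 and 4 lay inside the Vehicle range and PAHSA replicates 1 and 2 below it. Gbp2, a guanylate-binding protein gene and the one with the smallest p here, was at 3.26, 3.61, 4.64 and 4.61 log2 CPM in PAHSA and at 5.38, 4.86, 4.61 and 3.99 in Vehicle. The difference was -0.68 (SE 0.38, adjusted p = 0.732 by limma), and -0.42 without PAHSA replicate 1. It was -0.88 without PAHSA replicate 3, -0.87 without PAHSA replicate 4 and -0.92 without Vehicle replicate 5. With the acinar mean in the fit it was -1.03, and its smallest limma adjusted p in any alternative fit was 0.629. The family members Gbp3, Gbp5 and Gbp7 differed by -0.34 (SE 0.44), -0.78 (SE 0.62) and -0.04 (SE 0.28). Gbp5 was at 0.40 log2 CPM in PAHSA replicate 2, against 2.87 to 3.57 in the other PAHSA libraries and 3.08 to 3.78 in Vehicle. Igtp, which encodes the immunity-related GTPase Irgm3, was at 4.46, 5.87, 5.14 and 5.36 log2 CPM in PAHSA and at 5.62, 5.24, 5.43 and 5.14 in Vehicle. Both the lowest and the highest library were PAHSA ones, and the difference was -0.15 (SE 0.27). Irgm1, which regulates the other GTPases of its family, was at 4.86 in PAHSA replicate 1, against 5.92 to 5.98 in the other PAHSA libraries and 5.76 to 6.52 in Vehicle, a difference of -0.44 (SE 0.26). Irgm2, a second regulator, differed by 0.01 (SE 0.38) and Iigp1, an effector of vacuole lysis, by -0.13 (SE 0.58).

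Of the 3 feedback inhibitors, Socs3 was lower in PAHSA in every library, and the groups of Socs1 and Usp18 overlapped. Socs3 encodes an inhibitor of JAK kinases that is induced by STAT3 and inflammatory cytokines as well as by interferon. Socs3 stood at 6.50, 7.15, 6.98 and 7.04 log2 CPM in PAHSA and at 7.35, 7.69, 7.18 and 7.27 in Vehicle. All 4 PAHSA libraries lay below all 4 Vehicle libraries, by a narrow gap between PAHSA replicate 2 and Vehicle replicate 4. Socs3 averaged 6.92 ± 0.29 in PAHSA against 7.37 ± 0.22 in Vehicle (SD, n = 4 each). The difference was -0.45 (SE 0.16, 95% confidence interval -0.81 to -0.10), or 0.730 times the Vehicle level. The unadjusted p was 0.0166 and the limma adjusted p 0.671, so this difference too did not pass over all genes. Socs3 (ENSMUSG00000053113) is a protein-coding gene on the minus strand of chromosome 11 from 117966079 to 117970047 in GRCm38. Adding the acinar mean to the fit gave -0.50 for Socs3 (unadjusted p = 0.0312), and without Vehicle replicate 3 it was -0.35 (unadjusted p = 0.0558). Socs1, the inhibitor most tied to interferon signalling, was at 1.5, 2.46, 1.86 and 1.82 log2 CPM in PAHSA and at 2.06, 1.53, 2.42 and 2.36 in Vehicle, and the difference was -0.18 (SE 0.43). With 1 library left out it was between -0.37 (without PAHSA replicate 2 or Vehicle replicate 3) and -0.05 (without PAHSA replicate 1), with -0.08 without Vehicle replicate 4 and -0.09 without Vehicle replicate 5. Usp18, which removes Isg15 from proteins and blocks the type I receptor, had nearly equal PAHSA libraries, from 5.22 to 5.33, inside a Vehicle range of 4.60 to 5.66, and differed by 0.21 (SE 0.22).

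Cxcl10, a chemokine gene that draws T cells into inflamed islets, was at 2.86, 4.15, 2.31 and 3.79 log2 CPM in PAHSA and at 4.29, 3.83, 3.38 and 3.21 in Vehicle. PAHSA replicates 1 and 3 were below every Vehicle library and PAHSA replicates 2 and 4 within the Vehicle range. The difference was -0.40 (SE 0.43, adjusted p = 0.873 by limma), -0.08 without PAHSA replicate 3, -0.69 without PAHSA replicate 2, -0.26 without PAHSA replicate 1 and -0.20 without Vehicle replicate 1.

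**Figure D4:**
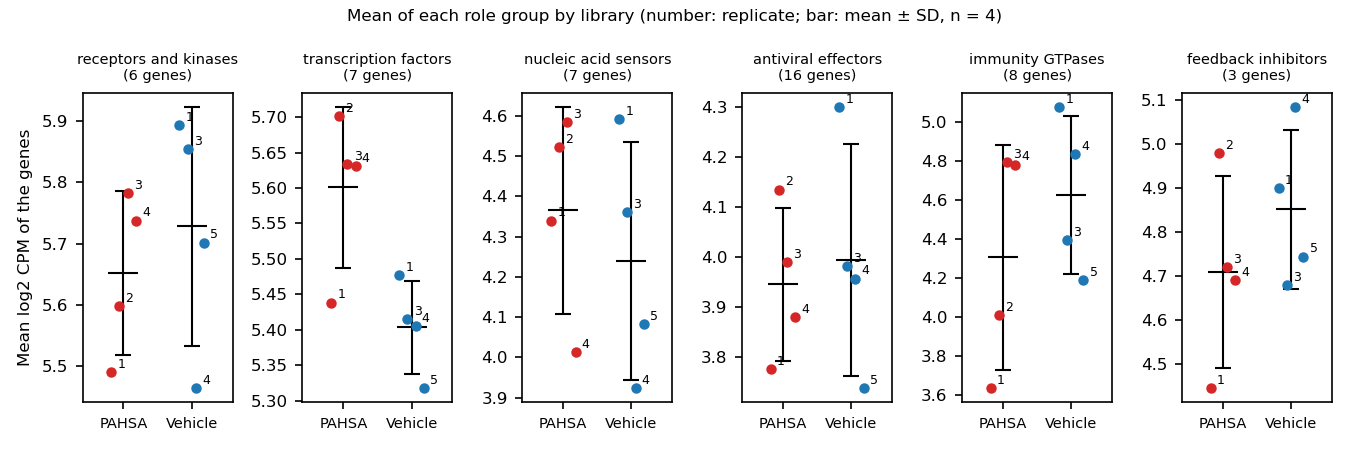
Mean log2 CPM over the tested genes of each role (y axis, its range set for each role) by library in PAHSA (left) and Vehicle (right), with the replicate number beside each point and the mean ± SD of 4 libraries as bars. The transcription factors come nearest to a separation, with PAHSA at 5.44 to 5.70 and Vehicle at 5.32 to 5.48, and the groups overlap in all 6 roles shown.

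Single libraries stood out over many of the genes. PAHSA replicate 1 was the lowest of the 8 libraries for 16 of the 48 genes (33.3%, against 14.8% of all genes tested), and Vehicle replicate 1 the highest for 11 (22.9%, against 9.53% of all genes). The mean over the 48 genes was 4.31, 4.63, 4.69 and 4.59 log2 CPM in the PAHSA libraries and 4.88, 4.59, 4.56 and 4.39 in the Vehicle libraries, so that the lowest and the highest library belonged to different groups while the other 6 lay between. The SD within groups, pooled over both, had a median of 0.46 over the interferon genes and 0.35 over all genes, at a median mean level of 4.82 and 4.69 log2 CPM. It was lowest for Ifnar2, at 0.13, and highest for Ifit3, at 1.39. The median SE of a difference was 0.30 for the interferon genes and 0.25 for all genes.

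Genes with and genes without an ISRE core in the promoter window were both mixed in direction. Of the 23 tested genes with a core, 10 were higher and 13 lower in PAHSA, with a median difference of -0.07, and of the 16 tested genes with a window but no core 11 were higher and 5 lower, with a median of 0.03. Socs3 is among the genes with no ISRE core in the window and Ifitm3 among those with one.

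Among other genes of the pathway more were lower than higher in PAHSA. Of 88 further symbols of interferon genes, ligands, signalling proteins and induced genes, 65 had a row and 58 were tested. Of the 58, 23 were higher (39.7%, against 49.1% of all genes tested) and 35 lower in PAHSA. The median difference was -0.10, against -0.0056 over all genes, and counts with 1 library left out are not given for this list. None of the 58 passed over all genes. At an unadjusted p under 0.05 there were 0 higher genes (against 3.02% of all genes) and 4 lower ones (6.90% of 58, against 4.29% of all genes). These were Parp11, an ADP-ribosyltransferase gene, at -0.78 (SE 0.31), Helz2, a helicase gene, at -1.12 (SE 0.46), Gbp4, another guanylate-binding protein gene, at -0.67 (SE 0.28), and Samd9l, an antiviral restriction factor gene, at -0.78 (SE 0.33). In each of the 4 genes the groups overlapped. Gbp4, Gbp6, Gbp8, Gbp9, Gbp10, Ifi47 and Tgtp1 were lower in PAHSA, and Tgtp2 was higher. All of these but Gbp8 had their lowest value in PAHSA replicate 1, as did 6 of the 8 immunity GTPases above. How far the direction of this list rests on that library was not tested. The ligand genes Ifna1, Ifna2, Ifnb1, Ifng, Ifnk and Ifnl2 were not analysed here.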

How the data were processed

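RNA from 4 PAHSA and 4 Vehicle islet libraries was compared. The authors deposited log2 CPM values (library-scaled counts). The submitters' processing notes name kallisto and limma without versions; the build is not given in the sources used here. Libraries were made with a Nextera XT kit, per the labels' protocols, which does not mark strand. Read as 0.5 added counts, the lowest value of each column gave estimated counts, 47.8% to 51.5% of them within 0.01 of a whole number, so no count test was used. CPM summed to 965680 to 1069261 per library. Symbols came from GENCODE M21 (GRCm38), and 56 identifiers had no match. Genes with a mean log2 CPM above 0 (12231 of 13725) were tested with limma 3.58.1 in R 4.3.3 (eBayes with trend, two-sided, group only, Benjamini-Hochberg, threshold 0.05). The fit was tested on simulated data. Differences are PAHSA minus Vehicle in log2 CPM; a count added before the log makes those of low genes too small. The alternatives were other filters on low values, log2(CPM + 1), quantile normalization, median centring, and fits without trend or with robust eBayes. Others were acinar or leukocyte marker means (the latter of Lcp1 and Cyba only) as covariates, a replicate block and leaving out each library.

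The genes, their roles, the further lists and the rules were chosen with earlier results of these data known. Values in every library are given for genes with an unadjusted p under 0.05, for the smallest p of each role and for Stat2, Irf1, Irf7, Irf9, Isg15, Ifit1, Ifih1, Gbp2, Igtp, Socs1, Cxcl10, Ifngr1 and Ifnar1; values in every library of further genes were added after they were seen. kallisto shares reads between similar transcripts, so values of the Ifit, Ifitm, Oas, Gbp and Irgm families are less certain, as are those of Adar, Irf3, Irf7, Irf9, Stat3, Igtp, Irgm2, Parp9 and Dtx3l, whose gene models overlap another gene in the table.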

Additional observations from a re-analysis of the deposited data

Results flagged for a closer look

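In 9 of 102 groups of 4 libraries (51 genes, 2 groups each), 1 library stood far from the other 3. The rule was a gap to the nearest library above 0.829 of the range, which flags about 1 in 20 groups of independent, normally distributed values. The genes share libraries, and the share over all genes is not given here, so the 9 are not read as an excess. In PAHSA, replicate 3 was low for Irf3 at 4.08 log2 CPM, replicate 4 for Ifih1 at 1.72 and for Usp18 at 5.22, the last within a narrow range, and replicate 1 for Irgm1 at 4.86. In Vehicle, replicate 5 was high for Ifngr1 at 4.96 and for Trim25 at 5.29 and low for Ifngr2 at 4.09, replicate 4 was high for Rtp4 at 5.03, and replicate 1 was high for Gbp5 at 3.78. Vehicle replicate 5 thus had 3 of the 9 and PAHSA replicate 4 had 2.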

How the results depend on the processing

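In all 19 alternatives 0 genes, interferon genes included, passed an adjusted p of 0.05 by limma, and no other tool was run. In the main fit 894 of the 12231 genes tested (7.31%) had an unadjusted limma p under 0.05. The median difference of the interferon genes was 0.08 at most (without PAHSA replicate 1) and -0.13 at least (replicate block), within the spread between libraries. No alternative scaling moved the median over all genes by more than 0.1. Lower genes at an unadjusted p under 0.05 numbered 1 to 4 and higher ones 0 to 1 in the fits that left out 1 library (lower, 4 without PAHSA replicate 3 and 1 without Vehicle replicate 3; higher, 1 each without PAHSA replicates 1, 3 or 4 and Vehicle replicates 1 or 5). Higher ones numbered 1 with the acinar covariate and 1 with the replicate block. Of 17 named differences, 10 kept their sign throughout, among them Ifitm3 (-1.34 to -0.79) and Socs3 (-0.57 to -0.32). Reversals were Stat2 at -0.010 under quantile normalization and Ifih1 at -0.0057 under median centring and -0.071 with the leukocyte covariate. With the acinar covariate Ifnar1 was at -0.27, Ifit1 at -0.19 and Socs1 at 0.076. With 1 library left out, the range was -0.18 to 0.14 for Ifnar1, -0.11 to 0.23 for Ifngr1, -0.26 to 0.39 for Stat2, -0.13 to 0.37 for Ifih1, -0.024 to 0.35 for Ifit1 and -0.37 to 0.10 for Igtp. The cause was not tested.

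The numbers 1, 3 and 4 occur in both groups, but deviations of equally numbered libraries correlated at -0.02 in each pair, so the numbers were not treated as pairs. In the replicate block over these 6 libraries, and in the same libraries without it (chosen after seeing the data), Stat2 was at -0.30 and Ifih1 at -0.20, and 15 of 48 interferon genes were higher, against 25 in all 8 libraries.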

Other observations

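Of the further interferon pathway genes tested, 5 had 1 library far below the other 7. No cut-off was set, and the share over all genes is not given here. Of all 13725 genes, 225, 211, 295 and 268 stood at the lowest value of the library in PAHSA replicates 1, 2, 3 and 4. In Vehicle replicates 1, 3, 4 and 5 there were 59, 99, 218 and 96 such genes. Vehicle replicates 1, 3 and 5 thus had fewer than any PAHSA library, and the cause was not tested. In PAHSA, Gbp9, a guanylate-binding protein gene, was at -6.19 log2 CPM in replicate 1, against 2.38 to 4.35 in the other PAHSA libraries and 3.72 to 4.82 in Vehicle. Trim21, a cytosolic antibody receptor gene, was at -4.73 in PAHSA replicate 4, against 3.19 to 4.65 in the other PAHSA libraries and 1.65 to 4.22 in Vehicle. In Vehicle, Trim34a, a tripartite motif gene, was at -6.50 in replicate 5, with PAHSA at 0.61 to 3.64 and the other Vehicle libraries at 1.24 to 2.74. Ifnlr1, the interferon lambda receptor gene, was at -4.59 in Vehicle replicate 4, with PAHSA at -0.13 to 1.87 and the other Vehicle libraries at 0.79 to 1.48. Ifit3b, a near copy of Ifit3, was at -3.09 in Vehicle replicate 4, with PAHSA at 0.72 to 2.45 and the other Vehicle libraries at 0.26 to 2.03.

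Oas2, an oligoadenylate synthetase gene that lay under the filter on low values, was at -2.49, -0.80, -1.45 and -2.07 log2 CPM in PAHSA and at 2.42, 2.87, 1.26 and -1.55 in Vehicle. Vehicle replicates 1, 3 and 4 lay above all PAHSA libraries and Vehicle replicate 5 within their range. These 6 genes were chosen after their values were seen.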
